A study of Mus musculus with 6 samples.

Results

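The 7 rows described here, Brd7, Tinagl1, Irf2bpl, Gapvd1, Parp14, Gm10800 and Gm37720, are nuclear rows among the 10 with the largest summed counts in a table of 55450 gene rows. They are 7 of the 9 nuclear rows in those 10, and the other two, Klf13 and the neutrophil granule gene Ltf, are not in the set. The members were chosen by their counts summed over the analysed libraries, so their high level is the selection itself and is given without a test. The contrast between the groups was not used to choose them. Marrow cells of C57BL6/SJL mice, sorted as lineage-negative and positive for Sca-1, were collected 12 weeks after transplantation, with 2000 cells to a library. The recipients had been lethally irradiated and received stem cells (LSK/SLAM) with overexpressed miR-125a or with miR-125a at its endogenous level. Both groups therefore share the irradiation, the transplantation and the sort. The analysed libraries are overexpressed replicates 2 and 3 and endogenous replicates 1 and 3, so n = 2 for each group, and the 2 further libraries that the labels name were not analysed here. Total counts were 737431 and 715930 in the overexpressed libraries, against 654126 and 712311 in the endogenous libraries. Sample titles abbreviate the endogenous group as EV, which is not spelled out in the labels used here. The labels name no vector, no recipient of each library and no batch. The p-values therefore measure the spread between these libraries only, which may be technical.

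All but Gm10800 and Gm37720 are genes with known products. Brd7 encodes a bromodomain subunit of the PBAF chromatin remodelling complex, and Irf2bpl a member of the family of IRF2-binding proteins. Gapvd1 encodes a RAB5 exchange factor of the endocytic route. Parp14 encodes an interferon-induced ADP-ribosyltransferase with macro domains that acts with STAT6. Tinagl1 encodes a secreted matrix protein related to the tubulointerstitial nephritis antigen. Gm10800 and Gm37720 are predicted loci with no known role. Brd7, Irf2bpl, Gapvd1 and Parp14 belong to machinery that many cell types use, while Tinagl1 is best known from basement membranes and vessels.

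The sequences of the predicted loci are shown first, because what is in them bears on how their counts can be read. Gm10800 lies on chromosome 2 of the mm10 build, 98666547 to 98667301 on the minus strand. Its annotated transcript of 660 bases in 5 exon blocks holds a repeated stretch. Compared with itself at each offset, the transcript matched best at 225 bases, where 56.3% of 435 bases were identical, against a median of 30.8% over all offsets. The 2 stretches of 120 bases that match best at 225 bases apart are given below from the GENCODE vM21 transcripts, 5′ to 3′. The best ungapped match to the first in the neighbouring row Gm10801 is added. Capitals in the lower lines mark bases identical to the first line.
Gm10800, chr2:98667109-98667228, minus strand: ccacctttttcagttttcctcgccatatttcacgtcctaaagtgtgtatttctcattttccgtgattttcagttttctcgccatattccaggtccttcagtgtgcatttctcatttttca
Gm10800, chr2:98666858-98666977, minus strand: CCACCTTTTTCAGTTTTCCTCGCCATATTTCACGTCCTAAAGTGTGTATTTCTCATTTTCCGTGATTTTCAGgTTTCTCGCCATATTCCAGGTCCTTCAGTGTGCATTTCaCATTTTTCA
Gm10801, chr2:98662378-98662497, plus strand: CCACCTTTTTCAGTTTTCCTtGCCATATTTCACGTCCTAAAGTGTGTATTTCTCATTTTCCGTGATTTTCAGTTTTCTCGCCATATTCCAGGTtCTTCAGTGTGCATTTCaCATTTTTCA
The second stretch was identical to the first at 118 of 120 bases, and the Gm10801 stretch at 117 of 120. Both were picked for the highest identity, so they are not typical of the transcript. Over all 435 bases compared at that offset, 56.3% were identical. Mouse pericentromeres consist of a tandem repeat, the major satellite, and predicted genes such as Gm10800 are known to be related to it; no satellite sequence was compared here.

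**Figure D1:**
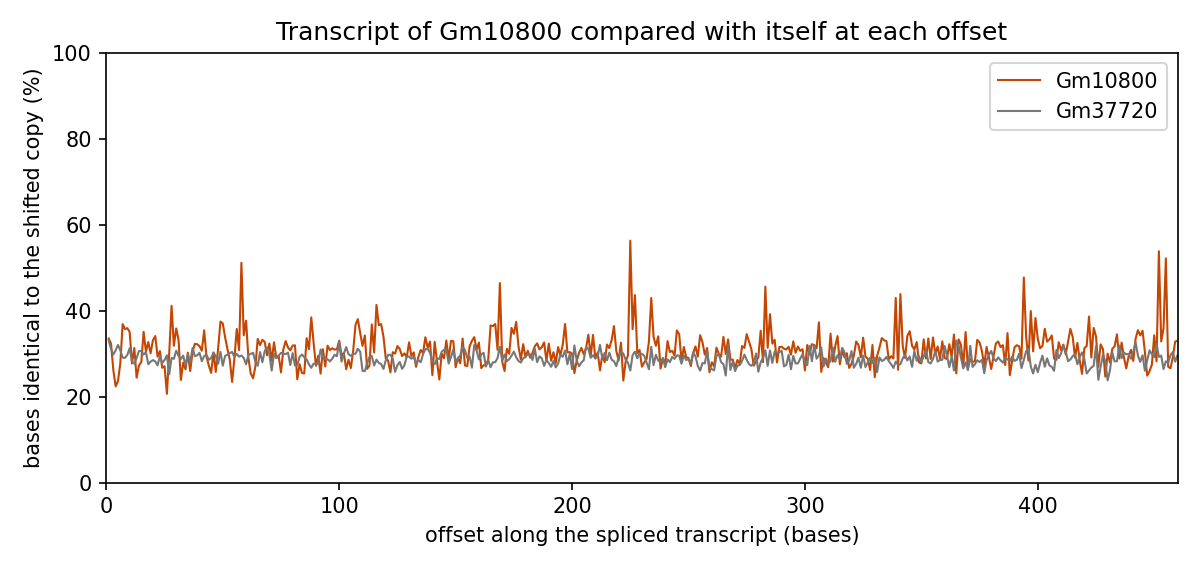
Percent of bases of the Gm10800 and Gm37720 transcripts (vertical axis) that are identical to the same transcript shifted by each number of bases (horizontal axis). The Gm10800 line has separate peaks, the highest 56.3% at an offset of 225 bases, while Gm37720 has a median of 28.9% and reaches at most 37.9%.

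Gm10800 shared far more of its sequence with other rows than the remaining members did. Of its 543 distinct words of 31 bases, 41.99% were also present in transcripts of 12 other genes, among them Gm10801, Gm10717, Gm10719 and Gm21738. Irf2bpl shared 7.01% of its words, mostly with 2 processed pseudogenes, Gm12291 and Gm11950, which held summed counts of 17 and 40 over the 4 libraries. Brd7 shared 0.152%, Gapvd1 0.421% and Parp14 1.45%, while Tinagl1 and Gm37720 shared 0 words. These few words occurred in many genes: 32 for Brd7, 1311 for Gapvd1 and 276 for Parp14. With words of 21 bases the share was 53.5% for Gm10800 and 11.4% for Irf2bpl. It was 1.43% for Brd7, 2.27% for Gapvd1, 2.24% for Parp14, 0.529% for Tinagl1 and 1.23% for Gm37720. The shared words of Gm37720 then occurred in 1241 genes and those of Brd7 in 1498. At that length, 0 words of any member occurred in genes that GENCODE vM21 annotates as mitochondrial or rRNA. Ribosomal sequence outside that annotation was not compared. Reads of Gm10800 thus cannot be assigned to it with certainty, since the way the counter treated reads with several matches is not given in the sources used here.

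Gm37720 lies on chromosome 5 at 57984212 to 57985452, a single exon of 1241 bases on the plus strand. Its annotation class is TEC, for loci still awaiting experimental evidence. It sits within an intron of Pcdh7, a protocadherin gene on the same strand, and shares no exon base with it. Its transcript had 30.8% G and C bases, and 0.115% of 5211 genes of like length (within 20%) had as few. It also held a run of 20 A bases, a length reached by 0.710% of those genes. Runs of A matter for reading such data because oligo-dT primers can anneal to them; whether they did so here was not tested. Long A runs were also found in annotated transcripts of Brd7 and Gapvd1, and a long T run in that of Irf2bpl. The longest of each is shown with the run in capitals.
Gm37720, chr5:57984385-57984414, plus strand, transcript without coding sequence: aaatgAAAAAAAAAAAAAAAAAAAAgaaat
Brd7, chr8:88331039-88331062, minus strand, end of a transcript without coding sequence: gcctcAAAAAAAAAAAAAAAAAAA
Gapvd1, chr2:34676961-34676990, minus strand, 3′ UTR: cttctgAAAAAAAAAAAAAAAAAAgtgtct
Irf2bpl, chr12:86880930-86880959, minus strand, 3′ UTR: ttgtttggTTTTTTTTTTTTTgttgcaagt
Runs of at least the length of the member's longest A run were held by 2.76% of genes of like exon length for Brd7 (19 bases) and by 11.04% for Gapvd1 (18 bases). A T run of 13 bases or more, as in Irf2bpl, was held by 13.4% of genes of its length. The longest A run of Irf2bpl had 11 bases, a length reached by 15.1% of those genes. In Tinagl1 the longest A run had 5 bases, in Parp14 it had 7 and in Gm10800 it had 3, so long A runs were not common to the members. The search for runs was added after the sequences had been seen.

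The 5 annotated genes lie on 5 chromosomes. Brd7 is on chromosome 8 (88331039 to 88362194, 17 merged exon blocks, 5244 exon bases), Tinagl1 on chromosome 4 (130164454 to 130175122, 15 blocks, 4358 bases) and Irf2bpl on chromosome 12 (86880701 to 86884798, a single exon of 4098 bases). Gapvd1 is on chromosome 2 (34674594 to 34755232, 28 blocks, 13748 bases) and Parp14 on chromosome 16 (35832874 to 35871544, 16 blocks, 9306 bases). All of these are on the minus strand. Parp14 shared 110 exon bases with Gm49730, a row with 0 counts, and the other members shared 0 exon bases with another gene.

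Brd7 was the largest row of the table. It had 21998 and 25750 counts in the overexpressed libraries, against 17872 and 16230 in the endogenous libraries, which is 2.98% and 3.60% of counts against 2.73% and 2.28%. Both overexpressed libraries were above both endogenous libraries. Gm10800 was the second largest, with 10729 and 13076 counts in the overexpressed libraries and 10427 and 28558 in the endogenous libraries. Endogenous replicate 3 stood apart there, with 4.01% of its counts, against 1.59% in endogenous replicate 1 and 1.45% and 1.83% in overexpressed replicates 2 and 3. The groups overlapped for this row.

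Gm37720 had 11152 and 14604 counts in the overexpressed libraries, against 10382 and 6551 in the endogenous libraries. Its shares were 1.51% and 2.04% against 1.59% and 0.920%, so on shares of all counts the groups overlapped. Tinagl1 had 13514 and 10395 counts in the overexpressed libraries, against 6013 and 4441 in the endogenous libraries. Its shares, 1.83% and 1.45% against 0.919% and 0.623%, did not overlap between the groups.

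Irf2bpl had 9651 and 10182 counts in the overexpressed libraries, against 9056 and 4559 in the endogenous libraries. Its shares were 1.31% and 1.42% against 1.38% and 0.640%, which overlapped. Endogenous replicate 1 lay close to the overexpressed libraries and endogenous replicate 3 was low. Gapvd1 had 6619 and 8851 counts in the overexpressed libraries, against 5233 and 4392 in the endogenous libraries, and its groups did not overlap. Parp14 had 4580 and 7218 counts in the overexpressed libraries, against 5008 and 2994 in the endogenous libraries. For Parp14, endogenous replicate 1 was above overexpressed replicate 2. For every one of these shares the 95% Wilson interval reached at most 0.0456 percentage points to either side, which covers counting error only, since no molecular identifiers are described.

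**Figure D2:**
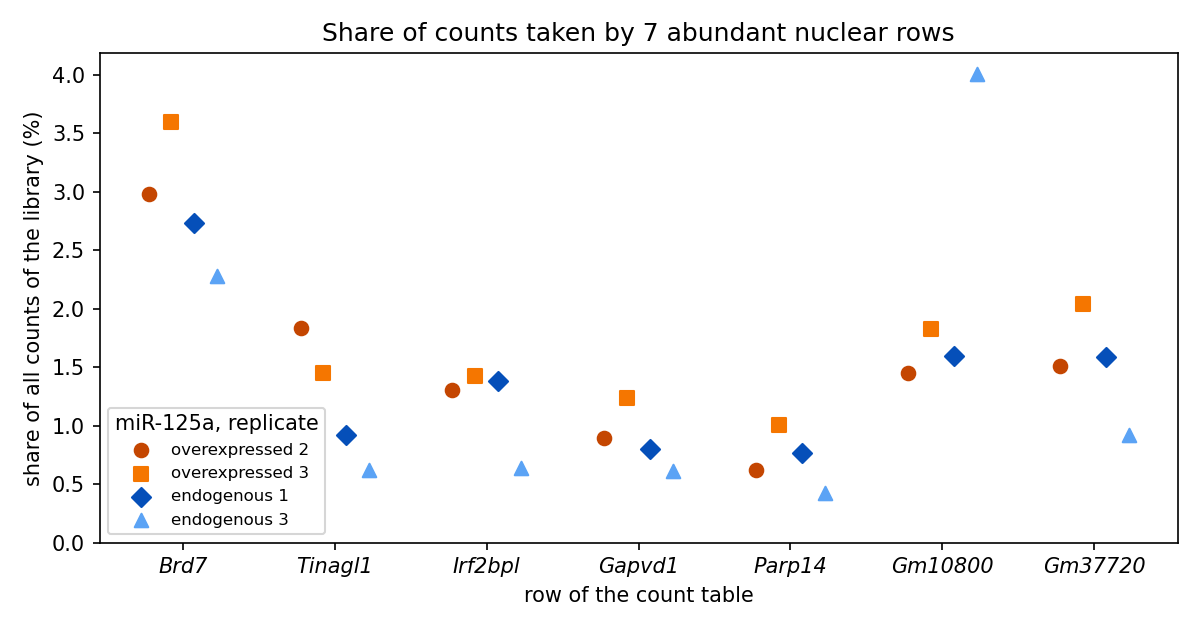
Share of all counts of a library (vertical axis, percent) taken by each of the 7 rows (horizontal axis), with 1 point per library. Endogenous replicate 3 has the highest point for Gm10800 (4.01%) and the lowest for the other 6 rows.

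Together the 7 rows took 10.6% and 12.6% of the counts in overexpressed replicates 2 and 3, against 9.78% and 9.51% in endogenous replicates 1 and 3. Without Gm10800 the other 6 took 9.16% and 10.8%, against 8.19% and 5.50%. Mitochondrial genes took 6.29% and 0.558% in the overexpressed libraries, against 4.14% and 4.22% in the endogenous libraries. On nuclear counts alone the share of the 7 was 11.3% and 12.7%, against 10.2% and 9.93%. In a single library, 6 or 7 of the 7 were among its 10 largest rows and all 7 were among its 20 largest. The last member inside the limit was Parp14, with a summed count of 19800 and rank 10. The rows just outside were mt-Cytb with 19388 and Lamc1 with 17971.

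Per length of exon, the members covered a wide range. Mean densities over the 4 libraries were 23784 counts per kb for Gm10800, 8600 for Gm37720, 3902 for Brd7, 2041 for Irf2bpl, 1971 for Tinagl1, 532 for Parp14 and 456.3 for Gapvd1. Irf2bpl and Tinagl1 did not keep one order: Tinagl1 was the denser in overexpressed replicate 2 (3101 against 2355), and Irf2bpl in overexpressed replicate 3 and both endogenous libraries. Parp14 and Gapvd1 also lay within each other's spread over the libraries, with 322 to 776 and 319 to 644 counts per kb. The median of 21938 nuclear protein-coding rows was 1.88 counts per kb, and 99% of them lay at or below 60.1. Odorant, pheromone and trace-amine receptor rows, 1479 in all and not thought to be active in marrow, held 2.56 and 3.42 counts per kb in the overexpressed libraries, against 2.87 and 3.77 in the endogenous libraries. The least dense member, Gapvd1, was 145 times their mean over the libraries. With the longest transcript in place of merged exons the order changed: Parp14, at 667 counts per kb, was less dense than Gapvd1, at 752, and Tinagl1, at 4120, was denser than Irf2bpl, at 2041.

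**Figure D3:**
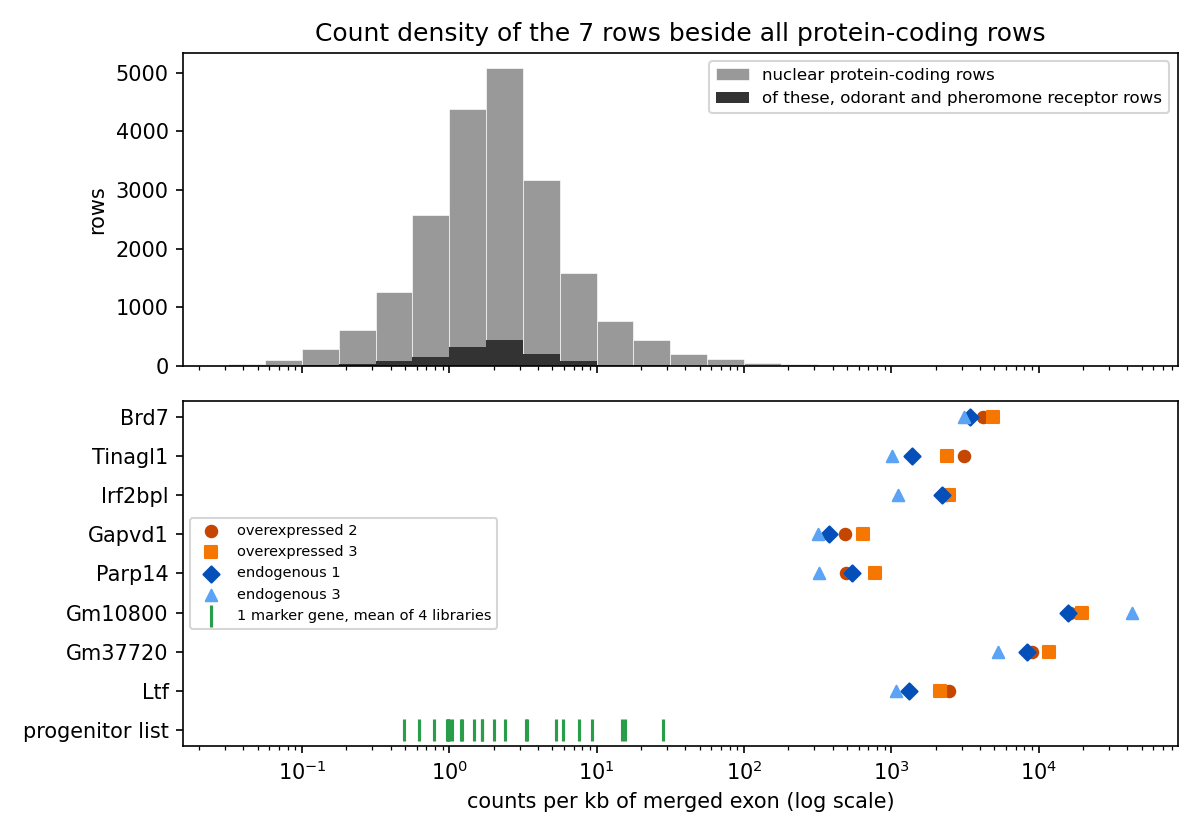
Upper panel: number of nuclear protein-coding rows (grey) and receptor rows (black) by mean count density, on a log scale. Lower panel: density of each member and of Ltf in each library, and of the progenitor marker genes as means of 4 libraries; the points of the members span 319 to 43269.7 counts per kb, and the highest progenitor marker, Coro1a, is at 28.3.

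The members, chosen for their large counts, stood far above genes that define the sorted cells. Ly6a, which encodes Sca-1, the protein the cells were sorted for, had 1 and 1 counts in the overexpressed libraries, against 1 and 0 in the endogenous libraries. The stem cell factor receptor gene Kit had 9 and 5 counts, against 4 and 25, and Ptprc, the gene of the pan-leukocyte antigen CD45, had 51 and 60 against 19 and 115. Of 25 haematopoietic progenitor genes, 4 (Coro1a, Fli1, Flt3 and Lmo2) had a mean density over 8.30 counts per kb. This is the receptor level, which 95% of receptor rows do not exceed. Flt3 and Lmo2 were uneven over the libraries. Flt3 had 242 and 33 counts in the overexpressed libraries, against 56 and 37 in the endogenous libraries. Lmo2 had 24 and 2 against 3 and 52. The densest receptor row had 265.7, more than any progenitor, erythroid or B-lineage gene listed here. Passing the receptor level alone thus does not show that a gene is expressed. The progenitor list took 0.0933% and 0.0619% of counts in the overexpressed libraries, against 0.0593% and 0.0842% in the endogenous libraries. Lyl1 was at 0 in all 4. Brd7 alone thus had more counts than the whole progenitor list in each library. The median density was 1.66 counts per kb for the progenitor list and 1.93 for receptor rows. In such bulk counts, fewer cells of a type and less RNA per cell cannot be told apart. Why the progenitor genes had so few counts was not tested.

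Marrow genes of other lineages were denser than the progenitor genes, yet below most members. Of 12 neutrophil genes 9 exceeded the receptor level, with Ltf at 1752 counts per kb and S100a8 at 760.1. These genes took 1.59% and 1.11% of counts in the overexpressed libraries, against 0.744% and 1.02% in the endogenous libraries. Ltf alone took 1.15% and 1.04% against 0.694% and 0.524%, the larger part of this share in each library. S100a8 was far less even, with 739 and 205 counts in the overexpressed libraries, against 36 and 1130 in the endogenous libraries. Of 11 erythroid genes 6 exceeded that level, led by the haemoglobin gene Hbb-bs (227), and of 10 B-lineage genes 5 did, led by Iglc3 (62.5). Among 20 abundant housekeeping genes 14 exceeded it, and the densest, the thymosin gene Tmsb4x (349) and the MHC class I light chain B2m (289), were below Gapvd1 in their means over the 4 libraries. In single libraries they were not always below it: Tmsb4x had 599 counts per kb in endogenous replicate 1, against 381 for Gapvd1, and B2m had 356 in endogenous replicate 3, against 319. Of 13 endothelial and stromal genes 0 exceeded it and of 11 kidney and epithelial genes 1 did, the cadherin Cdh1 (20.6). These last lists cover the cell types in which Tinagl1 is best known.

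Genes that work with the members were not abundant. Of 22 subunits of the PBAF and BAF remodelling complexes, 3 were above the receptor level: Brd7, the PBAF scaffold Pbrm1 (28.1 counts per kb) and the ATPase Smarca2 (18.2). Pbrm1 owed this to endogenous replicate 1, with 29 and 56 counts in the overexpressed libraries, against 839 and 72 in the endogenous libraries. Of 18 genes of the bromodomain family the densest after Brd7 were the acetyltransferase Kat2b (10.02) and Bptf (8.34). Irf2bp1 and Irf2bp2, the paralogs of Irf2bpl, had 2.29 and 0.689 counts per kb, and Irf2 itself 0.676. In the list of 17 genes made up of the PARP family and Dtx3l, the ubiquitin ligase partner of Parp9, Tiparp (20.9) was the only other gene above the receptor level, with 327 of its counts in endogenous replicate 3.

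Interferon-induced genes, the company in which Parp14 is usually seen, had 3 of 20 above that level: Bst2 (28.5), Mx2 (19.4) and Ifih1 (16.4). None of the 13 other genes of the RAB5 list exceeded it, where the exchange factors Rin1 and Rin3 had 6.17 and 6.00 counts per kb. The basement membrane list of 20 held 3, Tinagl1, the laminin gamma chain Lamc1 (543) and the laminin alpha chain Lama5 (9.83). Lamc1 is also the row ranked 12 in the table. In the list of 13 predicted genes with Gm10800 and Gm37720, 11 exceeded it, led among the others by Gm10801 (7809), Gm10722 (132) and Gm10717 (77.2), and Gm10721 was at 0.

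The genes next to the members had few counts. The near end of Adcy7, its 3′ end, lies 1077 bases from Brd7, and it had 169 and 11 counts in the overexpressed libraries, against 9 and 60 in the endogenous libraries. Hspa5, the chaperone gene beside Gapvd1, had 58 and 12 against 17 and 17. Pcdh7, whose intron holds Gm37720, had 78 and 48 against 32 and 66, so Gm37720 was 1628 times as dense as the exons of its host gene. Dtx3l, a ubiquitin ligase gene 54967 bases from Parp14, had 4 and 9 against 10 and 12. Across the nearest protein-coding genes on both sides of each member, the member was at least 74.2 times as dense, except beside Gm10801. Gm10800 was 3.05 times as dense as this repeat-bearing neighbour. The members were chosen for their large counts, so this excess is not a separate result.

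The main comparison asked which rows differed with overexpressed miR-125a. By edgeR's quasi-likelihood test over 10808 genes, 0 of the 7 members had a Benjamini-Hochberg adjusted p under 0.05, and 0% of all genes were called higher and 0% lower. An unadjusted p under 0.05 was reached by 0 members and by 566 of all genes. DESeq2 called 1.39% of genes higher and 2.29% lower, of the 4103 that kept an adjusted p, and 0 members. With edgeR's likelihood ratio test, 0.241% were higher and 0.537% lower, and without the filter on low counts 0.709% and 1.07% of 46089 genes, with 0 members under either setting.

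TMM factors were 0.833 and 0.986 in the overexpressed libraries, against 0.999 and 1.22 in the endogenous libraries. This scaling holds most genes near 0, so the median over all genes is a weak background for rows this abundant. The share of rows with both overexpressed libraries higher, given below, was larger among abundant rows than among all genes. Of the members, 6 had higher and 1 a lower fitted value, with a median log2 fold of 0.62 beside a median of -0.01 over all genes tested. Tinagl1 had the largest, a log2 fold (overexpressed over endogenous) of 1.30 ± 0.70 (SE, n = 2 for each group, edgeR adjusted p = 0.845). Gapvd1 followed with 0.78 ± 0.66, Gm37720 with 0.68 ± 0.69, Parp14 with 0.62 ± 0.72, Irf2bpl with 0.61 ± 0.74 and Brd7 with 0.59 ± 0.63. Gm10800 had -0.53 ± 0.70. For these 6 the edgeR adjusted p ran from 0.916 to 0.966. The adjusted p of Tinagl1 was 0.0875 by DESeq2, and its range over all alternatives was 0.0875 to 0.998. The authors' deposited table gives log2 folds of -1.31 for Tinagl1, -0.60 for Brd7 and 0.50 for Gm10800, with an FDR of 1.00 for each, while 404 of the 17039 genes in the authors' deposited table have an FDR under 0.05. The direction of that table is not stated, and 98.9% of its genes shared with the edgeR fit had the opposite sign there, so its folds read as endogenous over overexpressed.

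Among the genes related to the members, edgeR's quasi-likelihood test also called 0 in each list. Of 17 tested PBAF and BAF subunits, Brd7 included, 7 had higher and 10 lower fitted values, with a median log2 fold of -0.22. The 15 tested genes of the PARP and Dtx3l list were divided 7 higher to 8 lower (median 0.00), the 9 of the RAB5 list 4 to 5 (median -0.10) and the 17 basement membrane genes 10 to 7 (median 0.13). Of 7 tested interferon-induced genes, 4 had higher and 3 lower values (median 0.70). Among the lists for other cells of the marrow, 7 of 9 neutrophil genes had higher values (median 0.71), while 6 of 8 B-lineage genes and 5 of 5 erythroid genes had lower ones (medians -0.69 and -1.10). The groups overlapped for all 5 erythroid genes, which were highest in endogenous replicate 3. Hbb-bs had 214 and 2 counts in the overexpressed libraries, against 52 and 430 in the endogenous libraries. The groups also overlapped for every tested neutrophil gene but Ltf, and every tested B-lineage gene but Iglc3 and Ms4a1. The part of these lists in the values of the members was not tested.

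In CPM scaled by TMM, 5 members had both overexpressed libraries above both endogenous ones: Brd7, Tinagl1, Irf2bpl, Gapvd1 and Gm37720. For Irf2bpl and Gm37720 this depended on the scaling, since their shares of all counts overlapped. The background for this is high. Among all tested genes 15.2% were arranged that way, and 18% the opposite way. Among the 58 genes with a mean count of at least 1000 it was 55.2%, and the 5 of 7 is read beside that share as no feature of the members. With 2 libraries against 2, an exact permutation test of a single value cannot give a two-sided p below 0.333.

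The size of most folds depended on which endogenous library was kept. Without endogenous replicate 3 the log2 fold was 0.96 for Tinagl1, 0.51 for Gapvd1, 0.37 for Brd7, 0.26 for Gm37720, 0.17 for Parp14 and 0.09 for Irf2bpl, and that of Gm10800 turned to 0.14. Without endogenous replicate 1 the same folds were 1.84, 1.201, 0.95, 1.36, 1.36 and 1.52, and -0.87 for Gm10800. Between the endogenous libraries, replicate 3 was below replicate 1 by 1.30 on the log2 scale for Irf2bpl, 1.05 for Parp14 and 0.97 for Gm37720, and above it by 1.15 for Gm10800. The overexpressed libraries differed by 0.57 for Tinagl1 and by 0.47 or less for the other members. The fold between groups was thus smaller than the difference between the endogenous libraries for Irf2bpl, Parp14, Gm37720 and Gm10800, and larger for Tinagl1, Gapvd1 and Brd7.

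**Figure D4:**
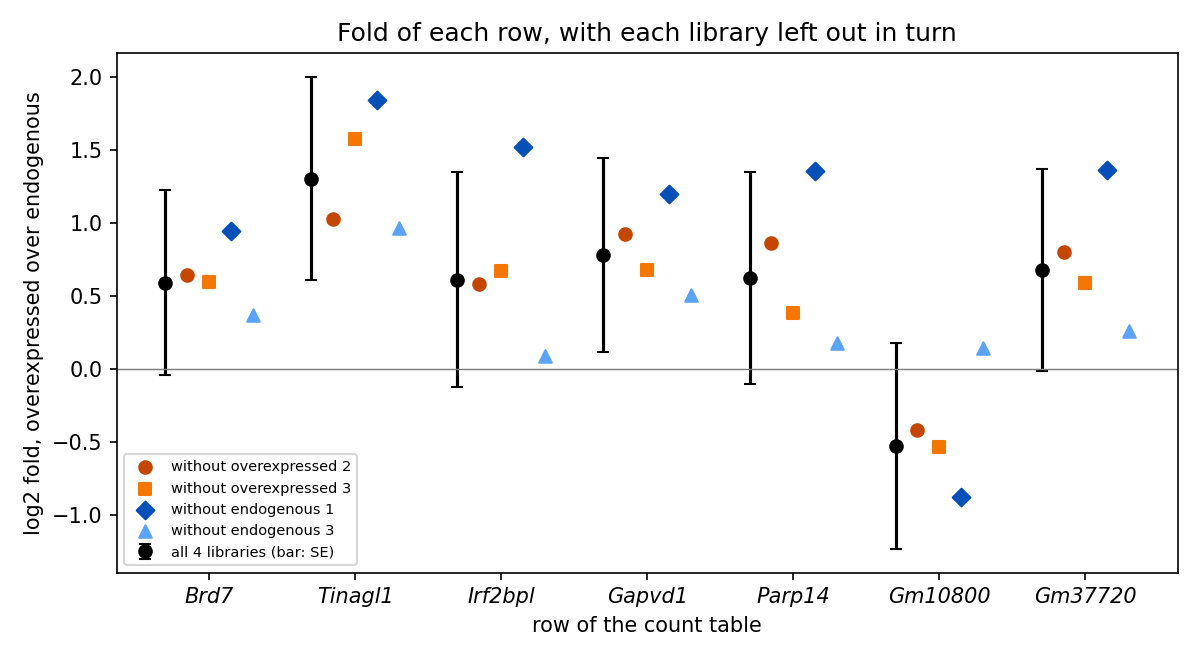
Log2 fold of overexpressed over endogenous (vertical axis) for each row: black points are the fit on 4 libraries with SE bars, coloured points the fit without 1 named library. The point without endogenous replicate 3 lies nearest to 0 for Brd7, Tinagl1, Irf2bpl, Gapvd1, Parp14 and Gm37720 and changes sign for Gm10800 (0.14).

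Within each library, the counts of the members were also set against those of Brd7. The ratio of Gapvd1 to Brd7 counts was 0.301 and 0.344 in the overexpressed libraries, against 0.293 and 0.271 in the endogenous libraries, a spread of 1.27 times. That of Gm37720 to Brd7 was 0.507 and 0.567, against 0.581 and 0.404, a spread of 1.44 times, and that of Parp14 to Brd7 was 0.208 and 0.280, against 0.280 and 0.184, a spread of 1.52 times. Irf2bpl to Brd7 stood at 0.439 and 0.395, against 0.507 and 0.281, a spread of 1.80 times. Tinagl1 to Brd7 spread 2.25 times, at 0.614 and 0.404 against 0.336 and 0.274. Its ratio to Ltf was 1.59 and 1.40 against 1.33 and 1.19, a spread of 1.34 times. These ratios need no normalization between libraries.

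Gm10800 followed its own course, together with the rows that share its sequence. Its ratio to Gm10801 was 3.87 and 3.96 in the overexpressed libraries, against 4.12 and 4.00 in the endogenous libraries, a spread of 1.07 times over libraries. Its ratio to Brd7 was 0.488 and 0.508 against 0.583 and 1.76. Of the 12 genes that share words of 31 bases with it, 9 had a summed count of at least 100, and all 9 were highest in endogenous replicate 3. That library held 39.1% to 52.0% of the counts of these 9 rows and 45.5% of those of Gm10800, beside 25.3% of all counts. Endogenous replicate 3 is also the library with the highest erythroid share, 0.335%, against 0.0173% in endogenous replicate 1 and 0.0446% and 0.0189% in overexpressed replicates 2 and 3. Its part in the level of Gm10800 was not tested.

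**Figure D5:**
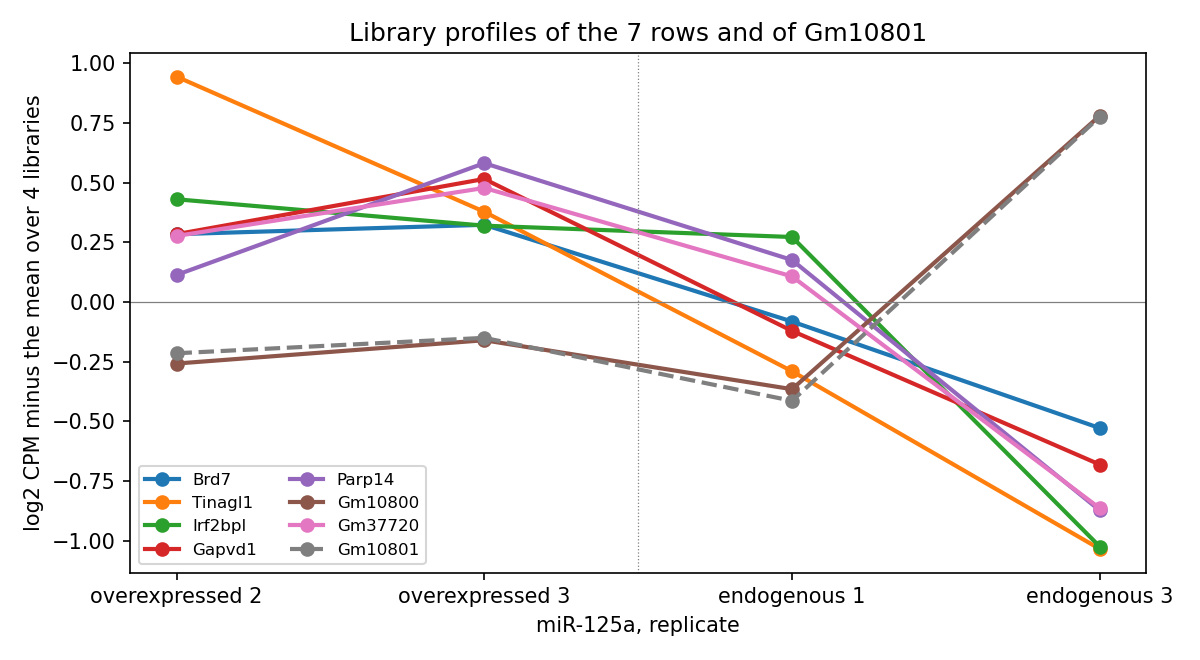
Log2 CPM of each row minus its mean over the 4 libraries (vertical axis) in each library (horizontal axis); lines only join the points of 1 row. Gm10800 and Gm10801 (dashed) coincide and peak in endogenous replicate 3, where the other 6 rows have their lowest values.

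The rows most like each member over the 4 libraries were sought among 711 other genes with a mean count of at least 100, by the distance between log2 profiles centred on their means. Closest to Brd7 were the pheromone receptor row Vmn2r102 (distance 0.085; 196 and 217 counts against 163 and 141) and Nmi (0.089). Closest to Tinagl1 were Vxn (0.19) and Gm38973 (0.21), and to Irf2bpl Wdr48 (0.12) and Grip1 (0.13). Gapvd1 was nearest to Lamc1 (0.14) and Tgm4 (0.16), Parp14 to Sin3b (0.057) and Gm10773 (0.092), and Gm37720 to Ifi209 (0.053) and Gm7180 (0.073). Gm10800 was nearest to Gm21738 (0.054) and Gm10801 (0.066), both of which share words with it. A distance under 0.5 was met by 84 genes for Brd7, 102 for Gm37720 and 34 for Tinagl1, but by 5 for Gm10800. With 4 libraries such likeness is a description only, and all rows share the same libraries and depths.

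Repression by miR-125a would act through seed matches in 3′ UTRs, so these were looked up in the members. The mature miRNA, credited to RefSeq (GRCm38.p6), is given with its seed, bases 2 to 8, in capitals, and with the match to it in Parp14.
miR-125a-5p, chr17:17830817-17830840, plus strand: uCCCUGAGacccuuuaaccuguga
Parp14 3′ UTR, chr16:35832990-35833019, minus strand, match in capitals: gatttggttaaCTCAGGGcaaggctgaata
The motif searched was CTCAGGG on the transcript's strand, with 1 UTR taken per gene, the longest one annotated. Parp14 held 1 match in 1772 bases, and 17.8% of 3106 genes with a 3′ UTR of like length held at least 1. Brd7, Tinagl1, Irf2bpl and Gapvd1 held 0 matches in 1429, 596, 869 and 3443 bases, and 14.1% of all 21186 genes with a 3′ UTR held one. No 3′ UTR is annotated for Gm10800 or Gm37720. The row with the match, Parp14, had a log2 fold of 0.62 ± 0.72 (SE) and groups that overlapped.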

How the data were processed

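The members and gene lists were chosen with earlier results of these data known. Whole-number counts per gene were deposited by the authors without normalization. FastQC 0.11.8, STAR, edgeR 3.24.3 and mm10 appear in the submitters' processing notes. Which program counted the reads, with which gene models and whether by strand, is not given in the sources used here. Log2 fold changes, mean log2 CPM, p-values, FDR values, a likelihood ratio score and a signed score were deposited by the authors in comparison tables, per the file headers. Column headers were matched to the sample numbers in the labels. All rows matched GENCODE vM21 (GRCm38), which gave symbols, exons and transcripts. No genome sequence was used here, so words of 31 bases were compared with transcripts only, and repeat masking planned for the members was not done.

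Counts were fitted with edgeR 4.0.16 (filterByExpr by group, TMM, quasi-likelihood F test with the dispersions of earlier versions) in R 4.3.3, with Benjamini-Hochberg adjustment over all tested genes and a threshold of 0.05. Each SE was obtained by dividing the size of the log2 fold by the root of its F statistic. The fit was tested on simulated data. Alternatives were DESeq2 1.42.0, a likelihood ratio test, other scalings, no filter, and each library left out. Density is counts per kb of merged exon. A pseudocount of 0.5 CPM entered the profiles. The runs, the self-match, the repeat stretches and the ratios within libraries were added after the data had been seen. The genes named were set by rule: the members, rows ranked 1 to 15, the 2 nearest profiles, and the densest genes of each list; others, such as Ly6a, Kit, Ptprc and Dtx3l, were chosen for their role or position.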

Additional observations from a re-analysis of the deposited data

How the results depend on the processing

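No paired analysis was possible because the analysed groups share only 1 replicate number. Over all genes, the count called was 0 with edgeR's quasi-likelihood test and stayed 0 with RLE size factors, with total counts only, with TMM factors computed without the members and mitochondrial genes, and without any 1 library. It was 822 with no low-count filter (327 higher, 495 lower), 151 with DESeq2 and 84 with the likelihood ratio test; the cause was not tested. The members were among the called genes under 0 of the 10 alternatives. Their direction held under each alternative but one: the log2 fold of Gm10800 was 0.14 without endogenous replicate 3. Leaving out 1 library gave ranges of 0.37 to 0.95 for Brd7, 0.96 to 1.84 for Tinagl1, 0.09 to 1.52 for Irf2bpl, 0.51 to 1.201 for Gapvd1, 0.17 to 1.36 for Parp14, -0.87 to 0.14 for Gm10800 and 0.26 to 1.36 for Gm37720. With total counts only, the fold was 0.33 for Brd7 and 1.03 for Tinagl1. With the length of the longest transcript in place of merged exons, the density was 4120 counts per kb for Tinagl1, 5645 for Brd7, 752 for Gapvd1 and 667 for Parp14, so Tinagl1 moved above Irf2bpl and Parp14 became the least dense.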
